A study of Mus musculus with 4 samples.

Results

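Transcript levels of 86 transcription factor genes of the Fox, Sox, Gata and Klf families were analyzed in EGFP-positive and Tomato-positive cells sorted from trachea and stomach of Tas2r143-reporter mice. The members were all protein-coding genes of the deposited table whose symbol is Foxa to Foxs, Sox, Gata1 to Gata6 or Klf with a number. They were taken by name from 48709 listed genes, and the naming rule uses no measured value. That rule was chosen with earlier results of these data known. The members comprise 44 Fox, 19 Sox, 6 Gata and 17 Klf genes.

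The mice were of the C57BL/6 strain and carried Tas2r143-CreERT2, a BAC transgene in which the Tas2r143 promoter drives the tamoxifen-dependent recombinase CreERT2, together with the reporter allele Rosa26flox-mT-stop-flox-mG. The 4 libraries share this genotype, adult mice were used, and which founder line gave the cells is unstated. All mice received 1 mg of tamoxifen on each of 5 days and the last dose was followed by 5 days without treatment before analysis. The reporter replaces membrane Tomato with membrane EGFP in cells that have recombined and in their progeny. EGFP-positive, DAPI-negative cells formed the first sort, and Tomato-positive cells that were also EpCAM-positive, EGFP-negative and DAPI-negative formed the second, so that only the Tomato sort was gated on the epithelial protein EpCAM. Cells of 3 mice were pooled for each sort and tissue, which gave 1 library a group and no replicate. Tracheal and gastric cells were released with different enzymes, and this difference in preparation cannot be told apart from the tissue.

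The title of each sample names the opposite tissue of its tissue field, and the libraries are given here the tissue of their titles, which the table's column names repeat. Marker genes were set beside these names. The club cell markers summed to 33348 per M normalized counts (M for mega, the SI prefix) in the Tomato library titled trachea and 4.5 in the one titled stomach, and the pit cell markers to 0.8 and 57187. Of the 4 chief cell markers, Pgc, Gif and Pga5 went with the titles. They were at 2, 0 and 0 normalized counts in the Tomato library of the trachea and at 992416, 89704 and 1429 in that of the stomach. Lipf alone went the other way, at 53408 normalized counts in the Tomato library of the trachea and listed at 0 in that of the stomach. The 6 tuft cell markers summed to 6341 and 6790 per M in the EGFP libraries of trachea and stomach and to 96.0 and 368 in the Tomato libraries. The EGFP libraries also held markers of other epithelial cells. Club cell markers summed to 1768 per M in that of the trachea. In that of the stomach, pit cell markers summed to 7771 and chief cell markers to 3445 per M. The part of such cells in the values of the EGFP libraries was not tested. The values are normalized counts, that is, reads per gene divided by a library factor and rounded. Library sums ranged from 9.98 to 15.43 M normalized counts. The spacing of low values put a read at 1.61 normalized counts for the tracheal EGFP library and at 0.786 to 0.816 for the other 3, so that about 6.2 M assigned reads stood behind the first and 17.3 to 18.9 M reads behind the others. The EGFP library of the trachea therefore had the largest counting error. Of 3455 genes at 200 or more normalized counts in each of the other 3 libraries, 102 were listed at 0 in it, against 2 to 44 such genes for the other libraries.

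Fox proteins bind DNA through a winged-helix forkhead domain, Sox proteins through an HMG box, Gata proteins through GATA-type zinc fingers and Klf proteins through a set of zinc fingers that recognize GC-rich and CACCC sequences. In the gut tube, Foxa and Gata4 to Gata6 factors are known for setting up endoderm and gastric identity, Sox2 for the foregut and airway epithelium, Sox9 for progenitor cells of several epithelia, and Klf4 and Klf5 for epithelial differentiation and growth. Foxf and Foxc genes are known from mesenchyme, SoxF genes from endothelium and Gata1 to Gata3 from blood cells.

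Each member was compared in 4 ways. Where a pair of values is given for a tissue, the first is that of EGFP-positive and the second that of Tomato-positive cells. The sort comparison in each tissue was log2((EGFP + 1)/(Tomato + 1)), and the tissue comparison within each sort was log2((stomach + 1)/(trachea + 1)). A gene was called higher or lower at a difference of 4-fold or more, provided that 1 of both libraries held at least 50 normalized counts. With 1 library a group this is a rule of size without a test, and it compares these libraries rather than groups of mice. The 95% intervals given below were calculated from the exact binomial distribution of estimated reads and cover counting error only. Each sort comparison shares its libraries with the tissue comparisons, whereas the sort comparisons of trachea and stomach share none with each other, and neither do the tissue comparisons of both sorts.

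Of the 86 members, 44 reached 50 normalized counts in any library, 14 lay between 1 and 48, and 28 were listed at 0 in all 4 libraries. Among the last were Sox10 and Foxd3, factors of neural crest and glia, Sox17 of endoderm and endothelium, and Foxp3 of regulatory T cells. Foxj1, the regulator of motile cilia, stood at 1 normalized count in the Tomato library of the trachea and was listed at 0 in the other 3, while the 5 ciliated cell markers were mixed. In that library the axonemal dynein gene Dnah5 was at 1906, Tekt1 at 242 and Rsph1 at 422, but Ccdc39 was at 2 and Tekt4 at 0, and Rsph1 was higher in the tracheal EGFP library, at 927. Foxm1, a factor of dividing cells, was at 27 in the Tomato library of the stomach and listed at 0 elsewhere.

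A factor was taken as set by tissue when it was called in the same direction in both tissue comparisons and in neither sort comparison, and as set by sort in the converse case. By this rule 4 of the 44 measured members, Foxa3, Foxp4, Gata5 and Gata6, were set by tissue, which is 9.1% beside 5.54% of the 13023 genes measured. Another 2 members, Foxe1 and Sox9, were set by sort, 4.5% beside 5.13% of all genes. Foxf1 alone was called in the same direction in both comparisons of each kind, 2.3% beside 1.06%. Of the others, 29 members or 65.9% were called in some comparisons only, beside 66.0% of all genes, and 8 members or 18.2% in none, beside 22.3%. The members thus fell into these classes in shares close to those of all genes.

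**Figure D1:**
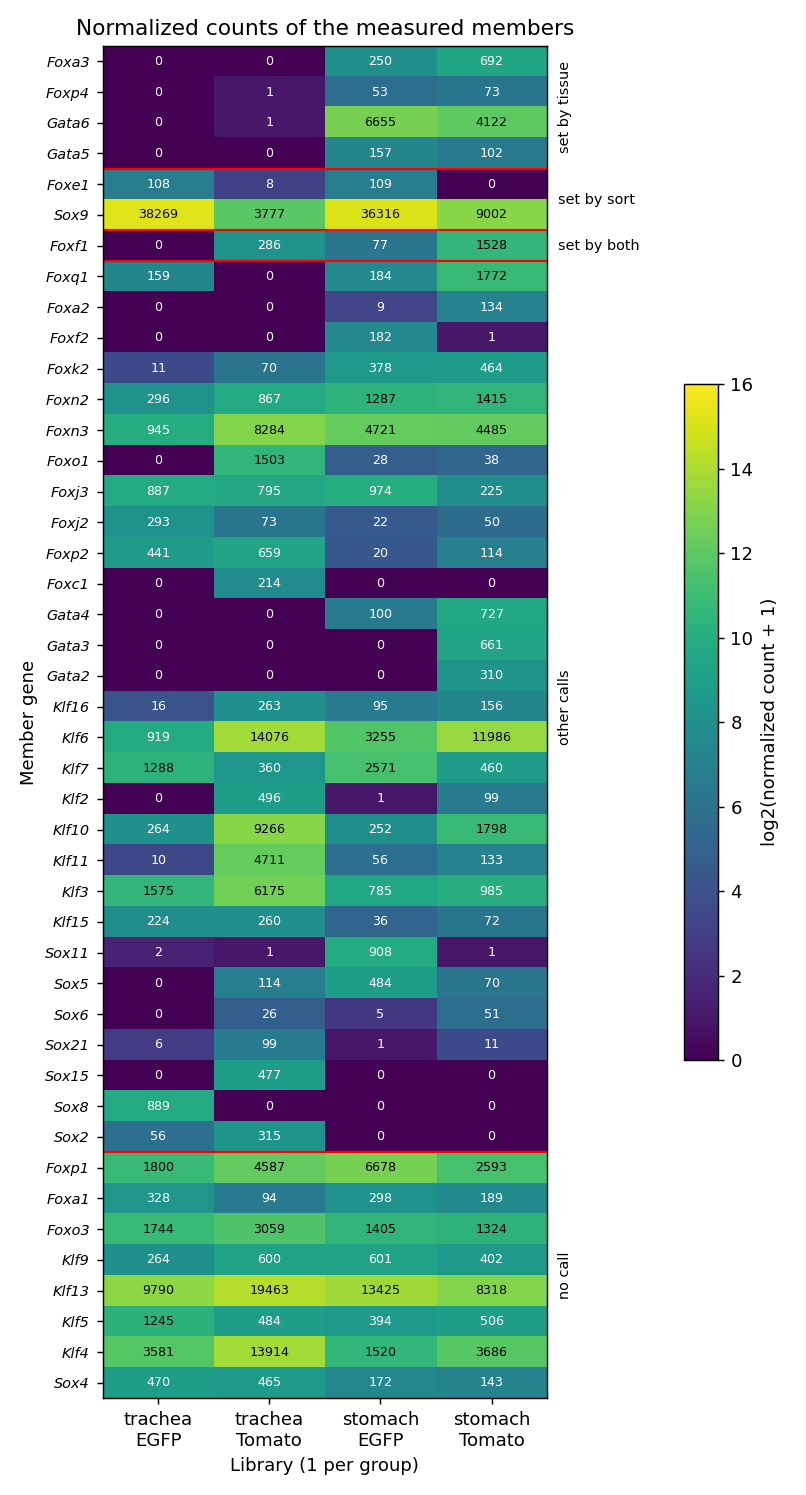
Normalized counts of the 44 measured members (rows) in the 4 libraries (columns, 1 library a group), with the value written in each cell and color showing log2(normalized count + 1). Red lines separate the classes, and the 4 members set by tissue are at 0 or 1 in both tracheal libraries and at 53 or more in both gastric libraries.

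The spread of each measured member over the 4 libraries was divided into a tissue part, a sort part and a part in which the sort ratio differed between tissues. The median share of the tissue part was 94.1% for the 5 measured Gata genes, 47.3% for 18 Fox genes, 33.3% for 9 Sox genes and 9.1% for 12 Klf genes, beside 32.0% for all measured genes. The sort part had medians of 2.9% for Gata, 18.7% for Fox, 33.3% for Sox and 55.6% for Klf genes, beside 33.3% for all. A gene listed at 0 in all but 1 library gets 33.3% for each part by construction. Sox8, Sox15, Gata2, Gata3 and Foxc1 were such genes, and both Sox medians fell on Sox8 and Sox15. By class, 2 of the 5 Gata genes were set by tissue and 0 of the 12 Klf genes by sort, and the sort share of single Klf genes ranged from 2.6% for Klf13 to 94.4% for Klf2.

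Among the members set by tissue, promoter sequences of Foxa3, Gata5 and Foxp4 were available, and they are shown with those of Sox8 and Sox11, which were each high in the EGFP library of 1 tissue. The sequences are from RefSeq, build GRCm38.p6, and run 5′ to 3′ from 250 bases before to 50 bases after the annotated start, each on the minus strand. They lie at chr7:19023490-19023789 for Foxa3, chr2:180334630-180334929 for Gata5, chr17:47924583-47924882 for Foxp4, chr17:25570637-25570936 for Sox8 and chr12:27342669-27342968 for Sox11. For Sox11 the GENCODE annotation, used here for exon lengths, starts 144 bases downstream of the RefSeq start and thus outside the window. Capitals mark matches, on either strand, to letters taken for the families' own binding sites.
Foxa3: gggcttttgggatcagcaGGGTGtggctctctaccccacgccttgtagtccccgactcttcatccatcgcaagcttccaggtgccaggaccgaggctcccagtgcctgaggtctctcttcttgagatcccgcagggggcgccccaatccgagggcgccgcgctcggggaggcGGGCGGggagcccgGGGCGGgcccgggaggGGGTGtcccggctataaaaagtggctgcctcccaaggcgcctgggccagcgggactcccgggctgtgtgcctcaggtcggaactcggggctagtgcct
Gata5: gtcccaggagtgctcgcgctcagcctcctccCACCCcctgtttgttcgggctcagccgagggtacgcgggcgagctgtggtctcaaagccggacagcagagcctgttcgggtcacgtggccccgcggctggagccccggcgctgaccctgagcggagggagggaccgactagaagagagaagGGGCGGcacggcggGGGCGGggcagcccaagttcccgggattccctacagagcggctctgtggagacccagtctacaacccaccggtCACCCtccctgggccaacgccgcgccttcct
Foxp4: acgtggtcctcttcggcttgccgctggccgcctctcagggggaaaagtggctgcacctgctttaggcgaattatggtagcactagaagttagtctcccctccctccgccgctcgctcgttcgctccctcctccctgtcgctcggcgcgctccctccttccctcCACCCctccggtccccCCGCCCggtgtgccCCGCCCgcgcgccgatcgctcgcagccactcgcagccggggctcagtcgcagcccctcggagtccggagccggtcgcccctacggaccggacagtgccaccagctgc
Sox8: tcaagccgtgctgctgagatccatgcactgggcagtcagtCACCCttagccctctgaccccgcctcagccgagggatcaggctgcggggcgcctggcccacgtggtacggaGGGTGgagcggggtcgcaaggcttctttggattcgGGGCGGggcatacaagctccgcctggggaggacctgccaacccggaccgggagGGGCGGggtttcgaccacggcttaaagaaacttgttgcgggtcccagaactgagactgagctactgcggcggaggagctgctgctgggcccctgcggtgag
Sox11: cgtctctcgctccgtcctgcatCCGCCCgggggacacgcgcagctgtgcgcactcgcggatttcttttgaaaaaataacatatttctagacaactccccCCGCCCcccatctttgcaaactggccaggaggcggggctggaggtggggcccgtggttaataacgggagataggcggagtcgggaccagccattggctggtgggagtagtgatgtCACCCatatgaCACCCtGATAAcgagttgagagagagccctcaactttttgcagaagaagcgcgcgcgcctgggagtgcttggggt

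The letters searched for Gata proteins were GATAA. For the forkhead proteins of the Fox family the letters were TGTTTA, and the Sox family was represented by ACAATG as its usual core. The Klf proteins and their Sp relatives were given CACCC and, as the usual GC box of promoters, GGGCGG as well. The Gata, forkhead and Sox letters were not found in the windows of Foxa3, Gata5, Foxp4 and Sox8, whereas the Sox11 window held 1 match to the Gata letters. The GC box occurred 2 times in each of the 5 windows. Of the 44 measured members 33 had an entry, with 43 entries in all since some genes have several starts. The GC box was present in 72.1% of these entries and in 35.7% of all 32851 promoters of the same length. The CACCC letters were present in 60.5% and 57.5%, the forkhead letters in 16.3% and 13.4%, the Sox letters in 11.6% and 12.6%, and the Gata letters in 14.0% and 25.4%. The 5 windows shown consisted of G and C to 58.7% to 70.3%, and such composition bears on how often GC-rich or AT-rich letters occur. Its part in these shares was not tested. A match describes letters in the window and is not evidence of binding.

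Gata4, Gata5 and Gata6 were at 100 or more in both gastric libraries and at 1 or less in both tracheal libraries. Gata6, a zinc-finger factor of endoderm, was at 6655 normalized counts in gastric EGFP-positive and 4122 in gastric Tomato-positive cells, and at 0 and 1 in those of the trachea. Both gastric libraries were high and both tracheal libraries at the floor, while gastric EGFP-positive cells stood above gastric Tomato-positive cells by a ratio of only 1.61 (95% interval 1.56 to 1.67). In such pooled libraries fewer cells of a type and less RNA per cell cannot be told apart. Gata5 was at 157 in gastric EGFP-positive and 102 in gastric Tomato-positive cells and listed at 0 in both tracheal libraries. Gata4, which acts with Gata6 in gastric epithelium, was at 100 and 727 normalized counts in gastric EGFP-positive and Tomato-positive cells and listed at 0 in the trachea. It was 7.27-fold (6.04 to 8.84) lower in gastric EGFP-positive than in gastric Tomato-positive cells, so that the 3 endodermal Gata genes had unlike sort ratios within 1 tissue. Pit cell markers summed to 7771 per M in gastric EGFP-positive and 57187 in gastric Tomato-positive cells, and chief cell markers to 3445 and 70209. The part of such cells in the Gata values was not tested. Counted per kb of exon, Gata6 was at 1022 in the EGFP library of the stomach, Gata5 at 47.9 and Gata4 at 25.6.

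Gata2 and Gata3, known from mast cells and from T cells and innate lymphoid cells, were found in the Tomato library of the stomach alone, at 310 and 661 normalized counts, and were listed at 0 in the other 3 libraries. Gata1 was at 33 there. In the same library the 4 mast cell markers summed to 187 per M, against 19.8 to 78.6 in the others, but they did not move together. Mcpt2 was at 2435 there and at 155 or less elsewhere, and Cpa3 at 256 and listed at 0 elsewhere. Fcer1a was at 2 there, and Kit was higher in both EGFP libraries, at 784 and 322, than in the gastric Tomato library, at 197. Of the 4 markers of T and innate lymphoid cells, Cd3e and Cd3g were listed at 0 and Il7r was at 3 in that library. Rora, at 360, made up nearly all of their sum there. The 5 enteroendocrine markers were also highest in that library, with a sum of 16765 per M against 54.7 or less in the other 3. The part of any of these cell types in the Gata values was not tested. The Gata partners Zfpm1, Zfpm2 and Tal1 stayed at 23 or less in every library.

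Foxa3, a forkhead factor of gut endoderm, was at 250 normalized counts in gastric EGFP-positive and 692 in gastric Tomato-positive cells and listed at 0 in both tracheal libraries. Foxa2 was at 9 and 134 in the stomach, a ratio of 14.89 (8.43 to 31.62) in favor of Tomato-positive cells, and was likewise listed at 0 in the trachea. Enteroendocrine markers, 5 genes, summed to 16765 per M in the gastric Tomato library and to 54.7 or less in the other 3, and their part in the Foxa2 value was not tested. Foxa1, in contrast, was present in all 4 libraries, at 328 and 94 in tracheal EGFP-positive and Tomato-positive cells and at 298 and 189 in those of the stomach. Foxa1 was called in no comparison. Its ratio of EGFP to Tomato was 3.49 (2.77 to 4.43) in the trachea and 1.58 (1.33 to 1.86) in the stomach. The 3 Foxa genes, which encode closely related proteins, therefore had 3 different patterns.

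Of the Foxp factors, transcriptional repressors known from lung and gut development, Foxp2 and Foxp4 were called by tissue in opposite directions. Foxp1 was called in no comparison and Foxp3 was listed at 0. Foxp4 was at 53 and 73 normalized counts in gastric EGFP-positive and Tomato-positive cells and at 0 and 1 in the trachea, just above the minimum of 50. Foxp2 was at 441 and 659 in the trachea and at 20 and 114 in the stomach, thus 22.05-fold (14.89 to 35.3) lower in gastric than in tracheal EGFP-positive cells and 5.78-fold (4.82 to 6.96) lower in gastric than in tracheal Tomato-positive cells. Foxp1 was at 1800 and 4587 in the trachea and at 6678 and 2593 in the stomach, and was not called. EGFP-positive cells were lower in Foxp1 by 2.55-fold (2.39 to 2.72) in the trachea and higher by 2.58-fold (2.47 to 2.68) in the stomach.

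Sox2, a factor of foregut and airway epithelium, was at 56 normalized counts in tracheal EGFP-positive and 315 in tracheal Tomato-positive cells and listed at 0 in both gastric libraries. Its sort ratio in the trachea was 5.62 (3.95 to 8.14) in favor of Tomato-positive cells, and the value of 56 rested on about 35 reads. Sox21, a repressor of the same Sox subgroup, was at 6 and 99 in the trachea and at 1 and 11 in the stomach. Sox15 was at 477 in tracheal Tomato-positive cells and listed at 0 elsewhere. Basal cell markers summed to 2366 per M in that library and to 0.3 to 13.5 in the other 3. The part of basal cells in the Sox15 and Sox21 values was not tested.

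Of the tissue comparisons, EGFP-positive cells had 14 of 35 measured members higher in the stomach (40.0%, beside 28.3% of all genes) and 5 lower (14.3%, beside 19.8%). Tomato-positive cells had 11 of 40 members higher in the stomach (27.5%, beside 27.9%) and 10 lower (25.0%, beside 20.3%). The median log2(stomach/trachea) of the members was 1.0 in EGFP-positive and -0.64 in Tomato-positive cells, and that of all genes measured was 0.16 and 0.11. With all libraries scaled to the same total, 11 members were higher and 7 lower in gastric than in tracheal EGFP-positive cells. Shares of all genes were not counted at that scaling. Of 10 members called in both tissue comparisons, 9 went the same way, beside 65.7% of all such genes. Foxa3, Foxf1, Foxk2, Foxp4, Gata4, Gata5 and Gata6 were higher in the stomach in both sorts, Foxp2 and Sox2 were lower, and Klf11 went opposite ways. Foxk2, a widely expressed forkhead factor, was at 11 and 70 normalized counts in tracheal EGFP-positive and Tomato-positive cells and at 378 and 464 in those of the stomach.

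**Figure D2:**
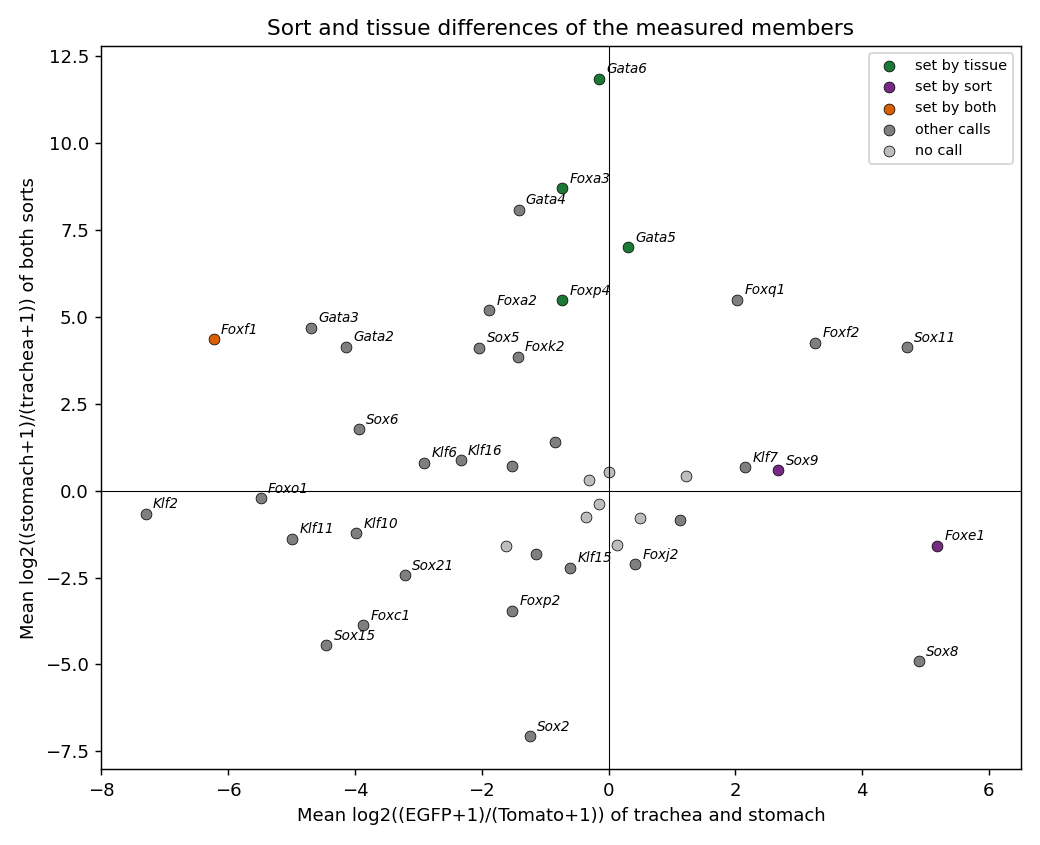
Each point is 1 of the 44 measured members. The horizontal axis is log2((EGFP+1)/(Tomato+1)) averaged over trachea and stomach, the vertical axis log2((stomach+1)/(trachea+1)) averaged over both sorts, and color gives the class. Gata6, at -0.15 and 11.85, lies along the tissue axis, Sox9, at 2.68 and 0.59, along the sort axis, and Foxf1, at -6.23 and 4.35, away from both.

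Sox9 was the most abundant member of the EGFP-positive cells. It was at 38269 normalized counts in tracheal EGFP-positive and 3777 in tracheal Tomato-positive cells and at 36316 and 9002 in those of the stomach. Both EGFP libraries lay above both Tomato libraries, and the EGFP libraries of the 2 tissues differed by a ratio of only 1.05 (1.04 to 1.07). The ratio of EGFP to Tomato was 10.13 (9.82 to 10.46) in the trachea and 4.03 (3.95 to 4.12) in the stomach. The latter lay just above the 4-fold limit, and scaling by the upper quartile took it below. Per kb of exon Sox9 stood at 9244 and 8772 in the EGFP libraries of trachea and stomach, where Klf13 was the next member with 1300 and 1783. Sox9 lies on chromosome 11 of GRCm38, from 112782224 to 112787760 on the plus strand.

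Foxe1, a forkhead gene best known from thyroid and palate, had the other sort-linked pattern at a much lower level. It was at 108 normalized counts in tracheal EGFP-positive and 8 in tracheal Tomato-positive cells and at 109 and 0 in those of the stomach. Both EGFP libraries were thus alike and both Tomato libraries at 8 or less. In the trachea the ratio was 13.5 with a wide interval of 6.82 to 29.07, because the Tomato value rested on about 10 reads. Foxe1 lies on chromosome 4, from 46343609 to 46346412 on the plus strand, and 3.6% of its exon sequence overlaps Gm12446.

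Klf7 was also above Tomato-positive cells in both tissues, at 1288 and 360 normalized counts in the trachea and at 2571 and 460 in the stomach. Its ratios were 3.58 (3.18 to 4.03) and 5.59 (5.11 to 6.12), so that it was called in the stomach alone, and in the trachea as well when libraries were scaled to the same total. Other Klf genes were lower in EGFP-positive cells. Klf10, an early gene of TGF-beta signaling, was at 264 and 9266 in tracheal EGFP-positive and Tomato-positive cells and at 252 and 1798 in those of the stomach. Klf2, known from endothelium and resting lymphocytes, was at 0 and 496 in the trachea and at 1 and 99 in the stomach. Klf6 was at 919 and 14076 in the trachea, a ratio of 15.32 (14.09 to 16.67), and at 3255 and 11986 in the stomach, a ratio of 3.68 (3.56 to 3.81), both in favor of Tomato-positive cells. Klf11 was at 10 and 4711 in the trachea and at 56 and 133 in the stomach, and Klf16 at 16 and 263 and at 95 and 156.

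Among Klf genes of epithelium, Klf4 followed the same order without passing the rule. It was at 3581 and 13914 normalized counts in tracheal EGFP-positive and Tomato-positive cells and at 1520 and 3686 in those of the stomach. The ratios in favor of Tomato-positive cells were 3.89 (3.72 to 4.06) and 2.42 (2.3 to 2.56). Klf3 was at 1575 and 6175 in the trachea and at 785 and 985 in the stomach. Klf5 stood apart, at 1245 and 484 in the trachea and at 394 and 506 in the stomach, with EGFP above Tomato by 2.57-fold (2.31 to 2.87) in the trachea alone. Klf13 was at 9790 and 19463 in the trachea and at 13425 and 8318 in the stomach and was called in no comparison. Klf9 was at 264 and 600 and at 601 and 402, and Klf15 at 224 and 260 and at 36 and 72.

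Klf6, Klf9 and Klf10 are known from the early response to stress, hormones and growth signals, and 10 immediate early genes, among them Fos, Egr1 and Atf3, were set beside them. They summed to 4419 and 10479 per M in tracheal EGFP-positive and Tomato-positive cells and to 368 and 2138 in those of the stomach. The sum was higher in Tomato-positive cells of both tissues, as were Klf6 and Klf10, whereas Klf9 was higher in Tomato-positive cells in the trachea and in EGFP-positive cells in the stomach. By the rule of size 4 of the 10 genes were lower in EGFP-positive cells in the trachea, beside 32.4% of all genes, and 8 in the stomach, beside 22.4%. The part of this response in the Klf values was not tested.

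In the sort comparison of the trachea, 4 of 33 measured members were higher in EGFP-positive cells (12.1%, beside 25.2% of all genes) and 14 were lower (42.4%, beside 32.4%). With libraries scaled to the same total, which adds up to 0.58 to each log2(EGFP/Tomato), 8 were higher and 13 lower. Shares of all genes at that scaling were not counted. In the stomach 7 of 38 were higher (18.4%, beside 14.8%) and 10 lower (26.3%, beside 22.4%). The median log2(EGFP/Tomato) of the members was -1.55 in the trachea and -0.34 in the stomach, and that of all genes measured -0.32 and -0.15. The members higher in the trachea were Foxe1, Foxq1, Sox8 and Sox9, and those in the stomach Foxe1, Foxf2, Foxj3, Klf7, Sox5, Sox9 and Sox11. Of 7 members called in both, 5 went the same way, beside 71.9% of all such genes. Foxe1 and Sox9 were higher and Foxf1, Klf2 and Klf10 lower in both tissues, whereas Foxq1 and Sox5 went opposite ways.

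**Figure D3:**
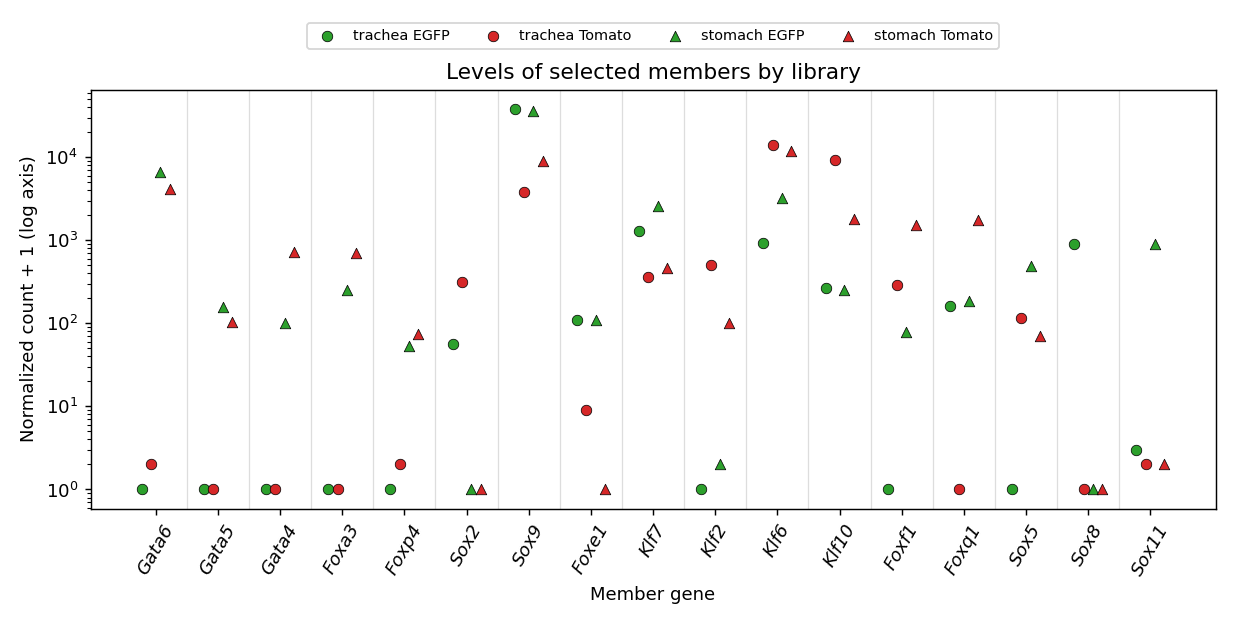
Normalized count + 1 on a log axis for 17 members in EGFP-positive (green) and Tomato-positive (red) cells of trachea (circles) and stomach (triangles), 1 library each, with 1 on the axis standing for a gene listed at 0. Triangles separate from circles for the Gata genes, Foxa3 and Sox2, and green separates from red for Sox9, Foxe1, Klf7, Klf2, Klf6 and Klf10.

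The SoxE genes, Sox8, Sox9 and Sox10, differed among themselves. Sox8 was at 889 normalized counts in tracheal EGFP-positive cells and listed at 0 in the other 3 libraries, including the gastric EGFP-positive cells, and Sox10 was listed at 0 throughout. Sox8 was the only member that was 4-fold or more above each other library in the EGFP library of the trachea. This is 2.3% of the measured members, beside 7.71% of all genes. Among SoxC genes, Sox11 was at 908 in gastric EGFP-positive cells and at 2 or less elsewhere. Its relative Sox4 was called nowhere, at 470 and 465 in tracheal EGFP-positive and Tomato-positive cells and at 172 and 143 in those of the stomach. With EGFP-to-Tomato ratios of 1.01 (0.87 to 1.17) and 1.2 (0.98 to 1.48), Sox4 differed between sorts by less than counting error in either tissue. Of the SoxD genes, Sox5 was at 0 and 114 in the trachea and at 484 and 70 in the stomach, and Sox6 at 0 and 26 and at 5 and 51. The SoxF genes Sox7 and Sox18 stayed at 48 or less, and the 5 endothelial markers went different ways. Tek was at 258 and 0 in the trachea and at 498 and 7 in the stomach, whereas Kdr was at 0 and 501 and at 1 and 98, and Pecam1 at 0 and 160 and at 15 and 174.

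In all, 18 of the 44 measured members, 40.9% beside 32.8% of all genes, reached in 1 library at least 4-fold the value of each other library. The Tomato library of the trachea held 8 of them, Foxc1, Foxo1, Klf2, Klf10, Klf11, Sox2, Sox15 and Sox21. These were 18.2% of the measured members, beside 10.6% of all genes. The Tomato library of the stomach held 6, namely Foxa2, Foxf1, Foxq1, Gata2, Gata3 and Gata4, which is 13.6% beside 8.94%. The EGFP library of the stomach held Foxf2, Sox5 and Sox11, which is 6.8% beside 5.58%. Markers of other cells also differed between these libraries. The 5 B and plasma cell markers summed to 11392 per M in the gastric EGFP library, 656 in the tracheal EGFP library, 555 in the gastric and 1.1 in the tracheal Tomato library. Jchain, at 149752 in the gastric EGFP library, made up most of that sum, with Cd79a at 791, Cd79b at 2855, Mzb1 at 1848 and Ms4a1 at 0 beside it. Of the 4 myeloid markers, Lyz2 was at 35491 in the tracheal and 5413 in the gastric Tomato library, while Csf1r was at 176 and 217, Cd68 at 151 and 727 and Itgam at 0 and 2. Their part in the values of these members was not tested. Foxo1, a forkhead factor under insulin control, was at 1503 normalized counts in tracheal Tomato-positive cells, listed at 0 in EGFP-positive cells there, and at 28 and 38 in gastric EGFP-positive and Tomato-positive cells. Its relative Foxo3 was at 1744 and 3059 in the trachea and at 1405 and 1324 in the stomach and was not called.

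Among factors of mesenchyme, Foxf1 was at 0 and 286 normalized counts in tracheal EGFP-positive and Tomato-positive cells and at 77 and 1528 in those of the stomach. Tomato libraries were above EGFP libraries in both tissues, and the gastric library was above the tracheal library in both sorts. Foxc1 was at 214 in tracheal Tomato-positive cells and listed at 0 elsewhere. Fibroblast markers summed to 1732 and 1692 per M in the tracheal and gastric Tomato libraries and to 47.9 and 18.6 in the EGFP libraries. All 6 markers were above 0 in both Tomato libraries, but their order between the tissues differed. Dcn was at 19397 in the tracheal and 7010 in the gastric Tomato library, and Pdgfra at 198 and 107. Lum, Col1a1, Col1a2 and Col3a1 went the other way, at 552, 3982, 1454 and 166 against 1048, 10478, 3419 and 4043. The part of fibroblasts was not tested. Foxf2, the closest relative of Foxf1, had another pattern, at 182 in gastric EGFP-positive cells and at 1 or less in the other 3 libraries.

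Widely expressed Fox genes also differed. Foxn3 was at 945 and 8284 normalized counts in tracheal EGFP-positive and Tomato-positive cells and at 4721 and 4485 in those of the stomach, a ratio of 8.77 (8.07 to 9.54) in favor of Tomato-positive cells in the trachea and of 1.05 (1.01 to 1.09) in favor of EGFP-positive cells in the stomach. Foxn2 was at 296 and 867 and at 1287 and 1415. Foxj3 was at 887 and 795 in the trachea and at 974 and 225 in the stomach, and Foxj2 at 293 and 73 and at 22 and 50. Foxq1, a factor of gastric surface cells, was at 159 and 0 in the trachea and at 184 and 1772 in the stomach. Of its exon sequence 66.1% overlaps exons of A530084C06Rik, and the authors left out reads that overlapped several genes. Such overlaps covered 54.6% of Sox4, 39.4% of Klf7 and 18.8% of Sox21, and 10.6% or less of the other measured members.

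Non-coding genes that start within 10 kb of a member were counted apart from the members. Of 58 such genes 9 reached 50 normalized counts, beside 8 different members, and 6 of the 9 had their highest value in the same library as the member. No such share was counted for genes outside the families, so the 6 cannot be set against a background. 1010001N08Rik, which starts 503 bases downstream of the start of Gata6 on the other strand, was at 85 and 352 normalized counts in gastric EGFP-positive and Tomato-positive cells and listed at 0 in both tracheal libraries. Both gastric libraries were thus the high ones for Gata6 and for its neighbor, although their order by sort was reversed. Gm12446, which starts 1906 bases downstream of the start of Foxe1 on the other strand, was at 517 and 0 in tracheal EGFP-positive and Tomato-positive cells and at 521 and 0 in those of the stomach. It separated the sorts as Foxe1 did.

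2810468N07Rik, antisense to Sox8, was at 3623 and 1 in the trachea and at 226 and 2 in the stomach, so that it was also above Tomato-positive cells in the stomach, where Sox8 was listed at 0. Fendrr, which is transcribed away from Foxf1, was at 87 and 314 in the stomach and listed at 0 in the trachea, including the Tomato library in which Foxf1 was at 286. 9030622O22Rik near Foxa2 was at 2 and 118 in the stomach and listed at 0 in the trachea, and Gm4675 near Sox21 at 3 and 187 in the trachea and at 0 and 20 in the stomach. Foxd2os was at 182 in tracheal EGFP-positive cells, although Foxd2 itself was listed at 0 there. Near Klf3, Gm20033 was at 76 in the same library and listed at 0 in the other 3, and C230096K16Rik was at 39 and 56 in the trachea and at 53 and 0 in the stomach. For overlapping pairs, reads on shared exon parts were left out and other reads were assigned by position, since the libraries do not mark strand. Transcription of a partner beyond its annotated exons could therefore not be told apart.

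**Figure D4:**
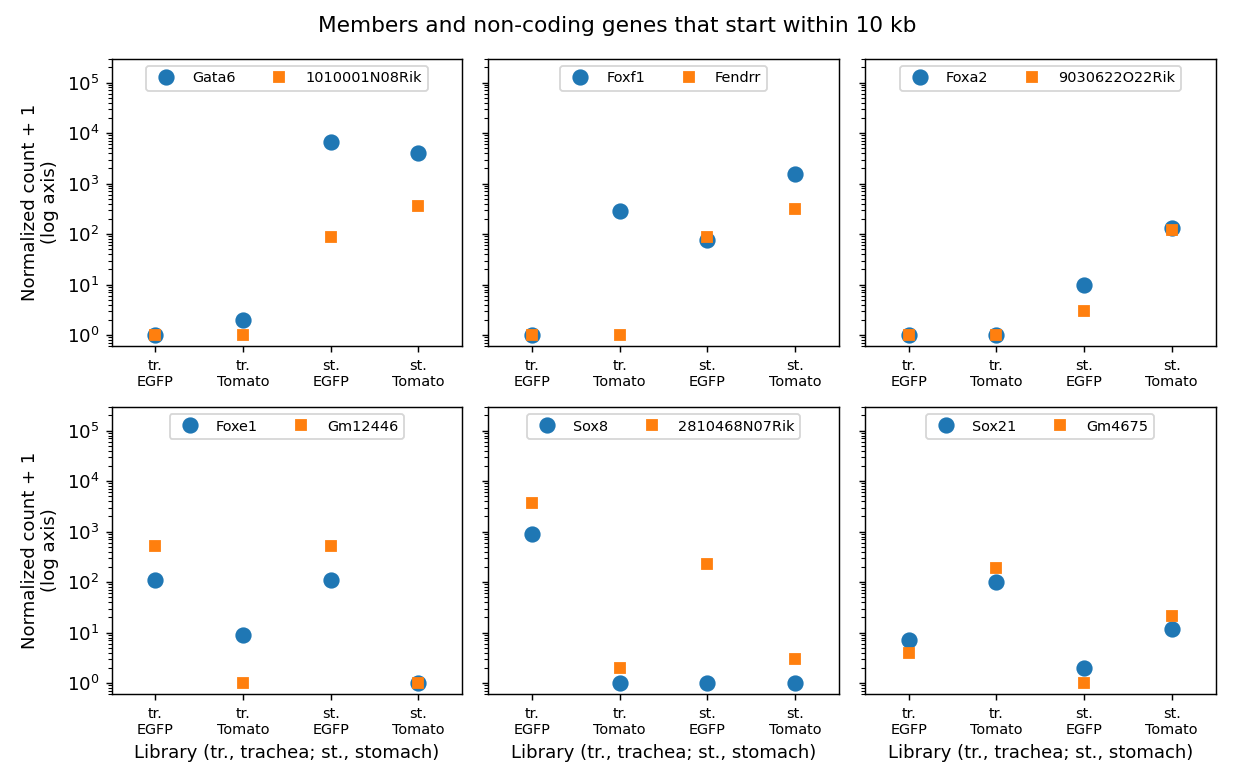
Normalized count + 1 on a log axis for 6 members (blue circles) and a non-coding gene that starts within 10 kb of each (orange squares) in the 4 libraries, 1 library a group. Gm12446 stands at 517 and 521 in the EGFP libraries, where Foxe1 is at 108 and 109, and 1010001N08Rik is above 0 in the gastric libraries only, as is 9030622O22Rik.

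Genes related to the families were set beside them. These lists are short, and their counts by sort stand beside large shares of all genes. In the trachea 25.2% of all genes were higher and 32.4% lower in EGFP-positive cells, and in the stomach 14.8% and 22.4%. Of 9 Sp genes, the nearest relatives of the Klf family, 3 were measured and 0 were called by sort. Sp1 was at 1763 and 3436 normalized counts in tracheal EGFP-positive and Tomato-positive cells and at 724 and 305 in those of the stomach, which put it lower in gastric than in tracheal Tomato-positive cells. Of 7 partners of Gata proteins 4 were measured. In the trachea 3 could be compared, of which 1 was higher in EGFP-positive cells, and in the stomach 3 of 4 were lower. Lmo2, an adaptor of Gata complexes, was at 1171 and 271 in the trachea and at 1 and 194 in the stomach. Of the 5 Groucho corepressors, which several Fox proteins recruit, 3 were higher and 1 lower in EGFP-positive cells of the trachea, and 1 was higher and 2 were lower in those of the stomach. Tle4 was set by sort, at 195 and 6 and at 140 and 25, and so was Tle1 in the other direction, at 0 and 371 and at 30 and 192. Among 7 regulators of multiciliated cells 5 were measured, with 3 higher and 2 lower in tracheal EGFP-positive cells. In the stomach 3 could be compared, and these 3 were higher in EGFP-positive cells. Myb was at 1005 and 8 in the trachea and at 120 and 21 in the stomach, and Rfx3 at 362 and 0 and at 529 and 66. Mcidas was at 155 in tracheal Tomato-positive cells and listed at 0 elsewhere.

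The average sort effect over both tissues and the average tissue effect over both sorts were tested across all 13023 measured genes with limma in an additive model of tissue and sort, which leaves 1 residual degree of freedom. The spread of each gene was taken wholly from genes of like level, so the test sets the size of an effect against those genes and gives no weight to how far a gene itself differed between the tissues or sorts. For the sort effect, 0.929% of all genes were higher and 1.41% lower in EGFP-positive cells at an adjusted p under 0.05, and for the tissue effect 1.09% were higher and 0.653% lower in the stomach. Of the 44 members, Sox9 passed as higher in EGFP-positive cells, with a log2 difference of 2.68 ± 0.51 (SE) and an adjusted p of 3.9e-05 (limma). Klf6, at -2.91 ± 0.68 with an adjusted p of 0.00174, and Klf10, at -3.98 ± 1.02 with 0.00671, passed as lower (limma). For the tissue effect Gata6 passed, with a log2(stomach/trachea) of 11.85 ± 2.15 and an adjusted p of 9.58e-06 (limma). The other members, Foxe1, Foxf1, Foxa3, Gata4 and Gata5 included, did not pass, with adjusted p of 0.134 or more. With a pseudocount of 0.1 Sox9 alone of the members passed, at an adjusted p of 0.0463 (limma). The calls rest on that spread: without the trend 0 of all genes passed for either effect (limma), with 976 and 1096 at an unadjusted p under 0.05, and the adjusted p of these 4 members lay between 0.509 and 0.691.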

How the data were processed

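Sorted cells of 3 mice a library were amplified with a SMART-Seq kit that does not mark strand, without molecular identifiers. Per the labels and the study's methods, the authors trimmed the reads, aligned them to GRCm38 with STAR 2.4.0a and counted reads on exons with featureCounts 1.4.5-p1, leaving out reads on several genes or several places. The signal deposited by the authors is reads per gene over a library factor, rounded to whole normalized counts. The origin of the factor is not stated in the sources. Rounding kept whole reads from being recovered, so no count model was run.

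The members and lists were chosen with earlier results of these data known. Members at 50 or more normalized counts in any library could be named, with full values for those set by tissue, by sort or by both and for those at 1000 or more. Other members named, the rule for genes high in 1 library, the immediate early list and the non-coding neighbors were chosen after values were seen. The worth of 1 read was the factor that best explained which whole numbers from 3 to 60 occur. Exon lengths and overlaps came from GENCODE M21 (GRCm38). For 116 symbols on several lines the line with the highest sum was kept. The additive model used limma 3.58.1 on log2(normalized count + 1), eBayes with trend, Benjamini-Hochberg adjustment over all genes at 50 or more in any library. The rule of size, the read worth and the fit were tested on simulated data. Alternatives were other pseudocounts (0.1, 10), minimums (3 reads, 500), scalings, fold limits (2, 8), summed symbols and eBayes without trend. Calculations used Python 3.11.15, scipy 1.17.1 and R 4.3.3.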

Additional observations from a re-analysis of the deposited data

Results flagged for a closer look

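The following members were called in opposite directions in 2 comparisons that share no library; the difference itself was not tested, since each ratio rests on 1 library a group. Foxq1 was above Tomato-positive cells in the trachea (159 against 0 normalized counts) and below them in the stomach (184 against 1772), a difference of 10.58 on the log2 scale between the EGFP-to-Tomato ratios of trachea and stomach. Sox5 went the other way, with 0 against 114 in the trachea and 484 against 70 in the stomach, a difference of -9.62. Klf11 was higher in the stomach than in the trachea among EGFP-positive cells (56 against 10) and lower among Tomato-positive cells (133 against 4711), and its ratios differed by -7.51. The value of 10 rested on about 6 reads, and the call among EGFP-positive cells, 2.37 on the log2 scale, fell under the 4-fold limit at the same total, with 1.96, and with a pseudocount of 10, with 1.72.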

How the results depend on the processing

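The depth of the tracheal EGFP library limits low members most: its floor of 3 reads is 4.83 normalized counts, against 2.36 to 2.45 in the others. Dropout, amplification and mouse-to-mouse spread could not be measured with 1 library a group. No analysis paired by mouse was possible because cells of 3 mice were pooled in each library and the labels carry no replicate numbers. The additive limma fit compared sorts within tissues. No library could be left out, since each group has 1. The summed symbols, the median of ratios and a pseudocount of 10 moved no count of members past 1.5 times. None of the 75 called log2 values changed sign, but this was fixed in advance and is no check. A pseudocount or a minimum cannot turn a ratio. The scalings shifted log2 ratios by at most 0.58, below the call limit of 2, and summing symbols changed 0 of the values.

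Without a minimum but with a floor of 3 reads, 26 members instead of 17 were called by sort in the stomach (17 lower instead of 10), and 17 instead of 11 were higher in gastric Tomato-positive cells. With a minimum of 500 the calls by sort were 7 in the trachea (2 higher, 5 lower) and 9 in the stomach (4 higher, 5 lower), those by tissue 5 in EGFP-positive (4 higher, 1 lower) and 11 in Tomato-positive cells (6 higher, 5 lower). Then 2 members were set by either factor, Gata6 being the 1 by tissue and Sox9 the 1 by sort. At the same total 8 members were higher in tracheal EGFP-positive cells, and by the upper quartile only 1, Foxe1, was set by sort. Members also changed behind like counts: with the floor of 3 reads Sox12 and Sox9 were set by sort and Foxe1 was not, and at 2-fold Foxe1 and Klf7 were set by sort and Foxa3 was no longer set by tissue. At 2-fold, 8 were higher in tracheal EGFP-positive cells, and 9 were lower in gastric than in tracheal EGFP-positive and 16 in Tomato-positive cells. At 8-fold 10 were called by sort in the stomach (3 higher), and 6 were lower in gastric Tomato-positive cells; Sox9 was then no longer set by sort. A minimum or fold limit admits more or fewer genes by construction; for the scalings the cause was not tested.

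In limma, at an adjusted p under 0.05, a pseudocount of 0.1 left 44 genes for sort (25 higher, 19 lower) with 1 member, Sox9, and 39 for tissue (23 higher, 16 lower) with 0 members. A minimum of 500 gave 193 for sort (104 lower) and 131 for tissue (71 higher). At the same total, sort had 147 higher and 135 lower instead of 121 and 183, and tissue 110 and 98 instead of 142 and 85. Without trend, 0 genes and 0 members were called for either effect, higher or lower.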
